A study of Mus musculus with 8 samples.

Results

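The Hedgehog pathway in the dental pulp (DP) was examined through 7 genes, Gli1, Gli2, Gli3, Ptch1, Smo, Hhip and Sufu, which were listed by name. The list was made with earlier results of these data known. All 7 were among the 12148 genes of the expression table. The RNA came from the DP of mandibular first molars of mice of strain C57BL/6J at P7, with 4 libraries of the Osterix-Cre control group and 4 of the Tgfbr2cko group, whose genotype was Osterix-Cre:Tgfbr2f/f. Both groups carried Osterix-Cre, a Cre recombinase under the Osterix promoter. In the Tgfbr2cko mice it removes Tgfbr2, the type II receptor for TGFβ, from the mesenchyme that gives rise to odontoblasts and osteoblasts. The paper reports, from reporter mice, no Cre activity in the nerve afferents of the tooth. The left and right first molars were combined before RNA isolation. The control libraries carry the label numbers 49 to 52 and the mutant libraries 53 to 56, and values are listed in that order. Nothing in the labels ties a library to a single mouse, so the p-values measure the spread between these libraries, which may be partly technical. Controls 49 and 50 share a number in their titles, as do mutants 54 and 55 and mutants 53 and 56, and what that number marks is not given. With libraries of 1 title number averaged, 3 controls stand against 2 mutants, and the smallest exact permutation p is 0.2.

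Hedgehog ligands are secreted proteins that bind Patched receptors. Ptch1 without ligand holds Smoothened (Smo) inactive, and ligand binding lets Smo act in the primary cilium, so that the Gli transcription factors, which Sufu retains in the cytoplasm, switch from repressing to activating their targets. Gli1, Ptch1 and Hhip are themselves targets, so their transcripts are widely used as readouts of the pathway. In the tooth, Shh is made in the dental epithelium and acts on both epithelium and mesenchyme, and Gli1 labels mesenchymal progenitor cells of the forming root.

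The promoters of Ptch1 and Hhip are shown because these members are known targets of the Gli factors and differed in how they varied between the libraries. RefSeq windows on GRCm38.p6 were held for 6 of the 7 members, and the 250 bases before the annotated start were searched on both strands for the 9-letter Gli motif GACCACCCA and for its 6-letter core CCACCC, which lies within the longer motif. Capitals mark the core. The Ptch1 window was chr13:63565736-63565985 on the minus strand, inside the bounds of the GENCODE gene with 0 bases in annotated exons, and the Hhip window was chr8:80058009-80058258 on the minus strand, outside the GENCODE gene. Both are printed 5′ to 3′.
Ptch1: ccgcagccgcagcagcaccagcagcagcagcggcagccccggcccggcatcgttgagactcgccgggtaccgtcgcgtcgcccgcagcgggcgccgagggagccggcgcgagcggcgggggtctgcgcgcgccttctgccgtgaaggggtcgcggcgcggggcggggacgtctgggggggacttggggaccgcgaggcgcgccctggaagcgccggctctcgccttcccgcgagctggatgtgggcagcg
Hhip: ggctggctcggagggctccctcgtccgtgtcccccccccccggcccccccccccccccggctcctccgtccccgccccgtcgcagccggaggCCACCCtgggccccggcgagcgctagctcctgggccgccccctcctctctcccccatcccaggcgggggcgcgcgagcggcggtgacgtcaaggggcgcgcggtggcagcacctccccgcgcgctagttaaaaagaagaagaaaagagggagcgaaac
The 9-letter motif was in 0 of the 6 windows, and in 0.225% of all 32851 RefSeq windows of this length. The Hhip window held the core 1 time, 158 to 153 bases before the start, and the Ptch1 window held none. On its strand the GENCODE gene of Ptch1 starts upstream of this window, at base 63573598, and the bases before that start were not searched. The core was also in the windows of Gli2, Gli3 and Smo, and 28.1% of all windows held it. These are matches of letters only.

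Reads counted on genes ran from 8682872 to 13539670 per library, so that 1 read was worth between 0.0739 and 0.115 counts per 1000000 reads (CPM). The fewest reads on any member were 46, for Hhip in library 52, and the most were 2054, for Smo in library 56. All 14 dental mesenchyme markers, Msx1 and Dlx3 among them, were in the table with at least 39 reads in every library. Tgfbr2 itself was at 7.16, 7.62, 7.64 and 7.52 log2 CPM in the control libraries, and 7.02, 7.00, 7.16 and 7.61 in the mutants, a fold of 0.82 (limma, p = 0.119, adjusted p = 0.79; exact permutation, p = 0.143). Mutants 53 and 54 lay below every control and mutant 55 beside the lowest control. The library labelled Tgfbr2cko 56 lay well within the control values, so its label was not borne out by this gene. The listed genes with an adjusted p under 0.05 were Klk4, Cldn5, Rgs5, Lhx8 and Ift57, all lower (limma), and in each of them library 56 lay below every control, as the other mutants did. Library 56 was part of the fit that called them, so they are no check of its label. For Msx1, Vim and Csf1r, which did not pass, though not for every listed gene, library 56 lay below every control too. Without it the log2 fold change of Tgfbr2 was -0.42 in place of -0.29, with an unadjusted limma p of 0.0136 (adjusted p = 0.295), and without control 49 it was -0.39, with an unadjusted limma p of 0.0411 (adjusted p = 0.569). Tgfbr2 also passed at an unadjusted limma p in 7 of 14 other alternatives. These were library weights, a term for the mean of epithelial genes, added after the data were seen, and that term without each of its genes. Its adjusted limma p was under 0.05 in 0 of 22 alternatives. Reads on the whole gene include exons that Cre does not remove, which limits this check. The tissue also held enamel organ transcripts. Amelx and Ambn, which encode the main enamel matrix proteins, together made up 0.326% to 2.14% of the reads in the controls, 0.347% to 2.74% in mutants 53 to 55, and 18.5% in mutant 56. Of 13 enamel organ and dental epithelium markers, 12 were in the table, each with at least 10 reads in every library, and their summed level ran from 4210 to 23700 CPM in the controls and from 4480 to 196000 CPM in the mutants. For this reason the differences of the members and the counts by list are also given without library 56. In bulk tissue, fewer cells of a type and less RNA per cell cannot be told apart.

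Gli1 and Ptch1 were higher in the Tgfbr2cko DP, and the other 5 members did not pass the test. Gli1 rose 1.87-fold and Ptch1 1.43-fold. At an unadjusted p under 0.05, 2 of 7 members were called, both higher, beside 8.38% of all genes in either direction and 3.3% of all genes in the higher direction, with 5.08% in the lower. Without library 56 the same 2 members were called, beside 5.43% of all genes in the higher direction and 4.15% in the lower. At the same p with a change of at least 1.5-fold, 1 of 7 was called, Gli1, beside 5.77% of all genes, and Gli1 lost this call without library 56 (0.58 log2) and with the mean level of enamel (0.58) or epithelial (0.50) genes in the model, where its change was under 1.5-fold. At an adjusted p under 0.05, 0 of 7 members were called by limma, beside 0.947% of all genes. The median log2 fold change of the 7 members was 0.23 (0.15 without library 56), with a range from -0.06 to 0.90, and the median over all genes was -0.0053.

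**Figure D1:**
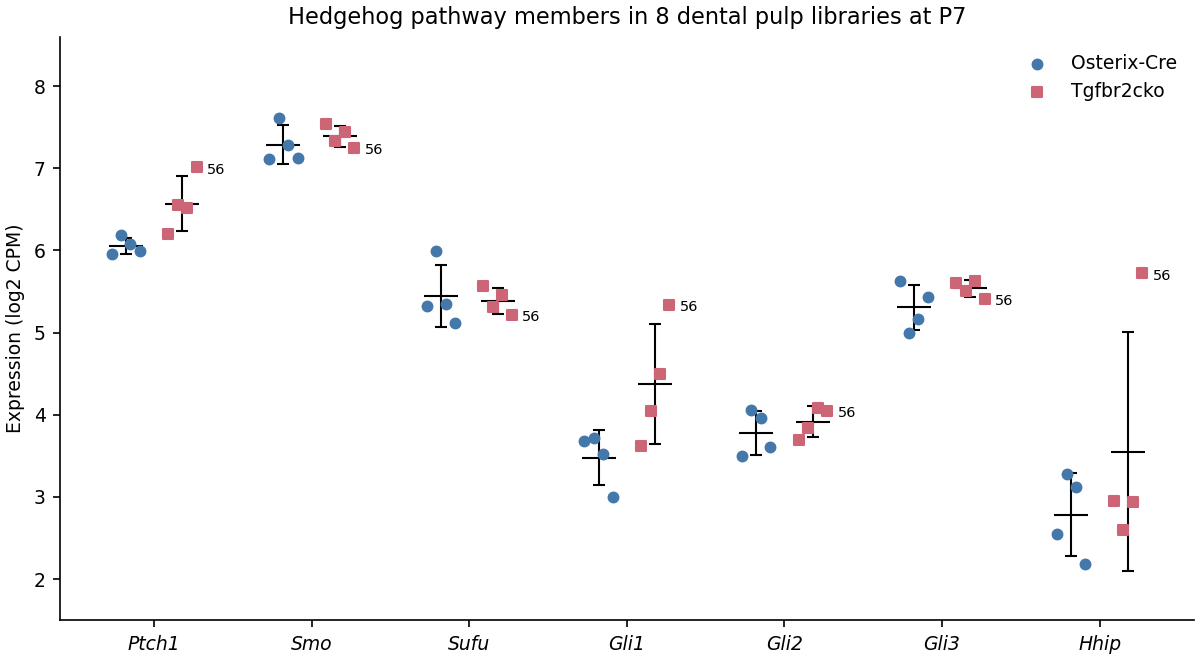
Expression of the 7 members in log2 CPM on the vertical axis, with circles for the 4 Osterix-Cre and squares for the 4 Tgfbr2cko libraries, and black bars for the mean and SD of each group. Library 56 is labelled, and its Hhip value of 5.72 stands 2.77 above the next mutant library.

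The receptor and transducer genes were ordered from the membrane inwards. Ptch1 (ENSMUSG00000021466.12, chr13:63508328-63573598, GRCm38) encodes the ligand receptor and is a target of the pathway. Its log2 CPM was 5.96, 6.18, 6.08 and 6.00 in the control libraries, and 6.20, 6.55, 6.51 and 7.01 in the mutants. Every mutant library lay above every control library, although the lowest mutant, 53, was close to the highest control, 50. Ptch1 was the only member whose groups did not overlap, and 2.13% of all genes were separated in this direction. The groups were at 6.06 ± 0.10 and 6.57 ± 0.33 log2 CPM (SD, n = 4 each), a log2 fold change of 0.51 with an SE of 0.17, and the 95% interval of the fold was 1.11 to 1.84. The limma p was 0.00958 and the adjusted p 0.258, while the exact permutation test gave p = 0.0286, the smallest that 4 against 4 allows. Without library 56 the difference was 0.37 (limma, p = 0.0229, adjusted p = 0.375; exact permutation, p = 0.0571, the smallest that 3 against 4 allows).

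Smo (ENSMUSG00000001761.7, chr6:29735503-29761365) encodes the transducer that Ptch1 inhibits. It was at 7.12, 7.62, 7.29 and 7.13 log2 CPM in the control libraries, and at 7.54, 7.33, 7.44 and 7.25 in the mutants. The mutant values all lay inside the control range. Its log2 fold change was 0.10, with a 95% interval from -0.22 to 0.43 (limma, p = 0.507, adjusted p = 0.995; exact permutation, p = 0.486). Sufu (ENSMUSG00000025231.16, chr19:46396896-46488804), which encodes the cytoplasmic inhibitor of the Gli factors, was at 5.33, 6.00, 5.34 and 5.11 in the control libraries, and at 5.56, 5.31, 5.46 and 5.21 in the mutants. Control 50 was the highest library for both Sufu and Smo. The log2 fold change of Sufu was -0.06, with a 95% interval from -0.48 to 0.36 (limma, p = 0.76, adjusted p = 0.998; exact permutation, p = 0.857), and its sign turned without control 50, at 0.12. For both genes the interval left out a change of 1.5-fold in either direction.

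Of the transcription factors, Gli1 differed most. Gli1 (ENSMUSG00000025407.7, chr10:127329882-127341974) encodes an activator that the pathway induces, and 6.55% of its exon bases overlap exons on the opposite strand, of Arhgap9 and Gm47200; the strand setting of the counting is not given in the sources used here. Its log2 CPM was 3.68, 3.71, 3.53 and 2.99 in the control libraries, and 3.62, 4.05, 4.49 and 5.34 in the mutants. Mutants 54, 55 and 56 lay above every control, and mutant 53 lay within the control values, so the groups overlapped. The values rested on 81 to 547 reads. The groups were at 3.48 ± 0.33 and 4.38 ± 0.73 log2 CPM (SD, n = 4 each), a log2 fold change of 0.90 with an SE of 0.32, and the 95% interval of the fold was 1.16 to 3.01. The limma p was 0.0144 and the adjusted p 0.324, while the exact permutation test gave p = 0.0857. Library 56 moved the size by over 1.5 times: without it the difference was 0.58 (limma, p = 0.0409, adjusted p = 0.476; exact permutation, p = 0.171).

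Gli2 (ENSMUSG00000048402.14, chr1:118834132-119053619) encodes the main activator in response to ligand. It was at 3.49, 4.06, 3.95 and 3.61 log2 CPM in the control libraries, and at 3.69, 3.84, 4.09 and 4.05 in the mutants. The groups overlapped, and the log2 fold change was 0.14 with a 95% interval from -0.30 to 0.57 (limma, p = 0.503, adjusted p = 0.995; exact permutation, p = 0.457). Gli3 (ENSMUSG00000021318.15, chr13:15463235-15730026) encodes the main repressor in the absence of ligand. It was at 5.62, 4.998, 5.17 and 5.44 in the control libraries, and at 5.61, 5.50, 5.63 and 5.41 in the mutants. The mutant values lay together near the upper end of the control range, and the log2 fold change was 0.23 with a 95% interval from -0.13 to 0.59 (limma, p = 0.184, adjusted p = 0.864; exact permutation, p = 0.229). Gli1 against Gli3 in the same library was at -1.95, -1.29, -1.64 and -2.44 on the log2 scale in the controls and at -1.98, -1.45, -1.14 and -0.07 in the mutants. Mutants 55 and 56 lay above every control in this difference of log2 values, and no test was made of it.

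Hhip (ENSMUSG00000064325.4, chr8:79965851-80058006) encodes a membrane-bound inhibitor that captures Hedgehog ligands, and it is also a target. Its log2 CPM was 2.55, 3.28, 3.12 and 2.18 in the control libraries, and 2.95, 2.60, 2.94 and 5.72 in the mutants. Mutant 56 held 713 reads and each other library 46 to 93, and the other 3 mutants lay within the control values. Over all libraries the log2 fold change was 0.77 with an SE of 0.56 (limma, p = 0.19, adjusted p = 0.87; exact permutation, p = 0.457). Without library 56 it was 0.05 (limma, p = 0.877, adjusted p = 0.991; exact permutation, p = 0.914), so a single library set this difference.

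**Figure D2:**
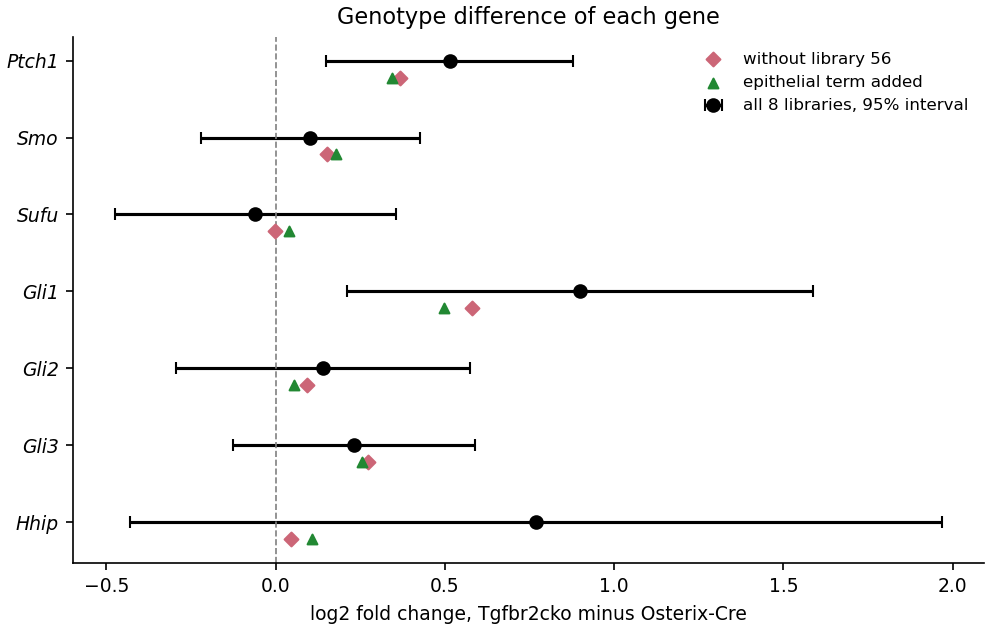
The log2 fold change of the 7 members, Tgfbr2cko minus Osterix-Cre, with 95% intervals from limma on all 8 libraries (black), and the values without library 56 (diamonds) and with an epithelial term in the model (triangles). Intervals of Ptch1 and Gli1 lie above 0, and the Hhip difference of 0.77 falls to 0.05 without library 56.

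The mean of the 3 target members, Gli1, Ptch1 and Hhip, was set against the mean of the other 4 in each library, on the log2 scale. It lay at -1.33, -1.28, -1.20 and -1.59 in the controls and at -1.34, -1.09, -1.01 and 0.54 in the mutants. Mutants 54, 55 and 56 lay above every control, and 56 was the only library above 0. The genotype difference of this value was 0.62, and 0.20 without library 56. The mean of the other 4 members differed by 0.10 log2, and 0.13 without that library. Taken singly without library 56, Smo was at 0.15, Sufu at -0.0019, Gli2 at 0.09 and Gli3 at 0.27 in log2 fold change, and 0 of these 4 passed (limma).

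Between the members, levels were compared per kb of exon as CPM per kb (RPKM). In the controls Smo was highest at 28.1 ± 4.79 RPKM (SD, n = 4), followed by Sufu at 5.82 ± 1.69, Ptch1 at 4.69 ± 0.33, Gli3 at 4.18 ± 0.805, Gli1 at 2.26 ± 0.471, Gli2 at 2.02 ± 0.375 and Hhip at 0.787 ± 0.263. The control ranges of Sufu and Ptch1, of Ptch1 and Gli3, and of Gli1 and Gli2 overlapped, so on this length those neighbours did not differ beyond their spread. The levels depended on the length used. With the longest transcript in place of all exons, the control mean of Sufu was 9.89 RPKM, of Ptch1 6.41, of Smo 41.7 and of Gli1 2.78. The control ranges of Sufu and Ptch1 no longer overlapped, while those of Ptch1 and Gli3 and of Gli1 and Gli2 still did. Within single libraries on that length, Gli1 lay above Gli2 in 8 of 8 and Ptch1 above Gli3 in 7 of 8. Per kb of all exons, Ptch1 was at 6.83 ± 1.63 RPKM and Gli1 at 4.59 ± 2.48 in the mutants. In library 56 Gli1, at 8.09 RPKM, lay above Gli3, at 4.44, which was the higher of the pair in the other 7 libraries.

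**Figure D3:**
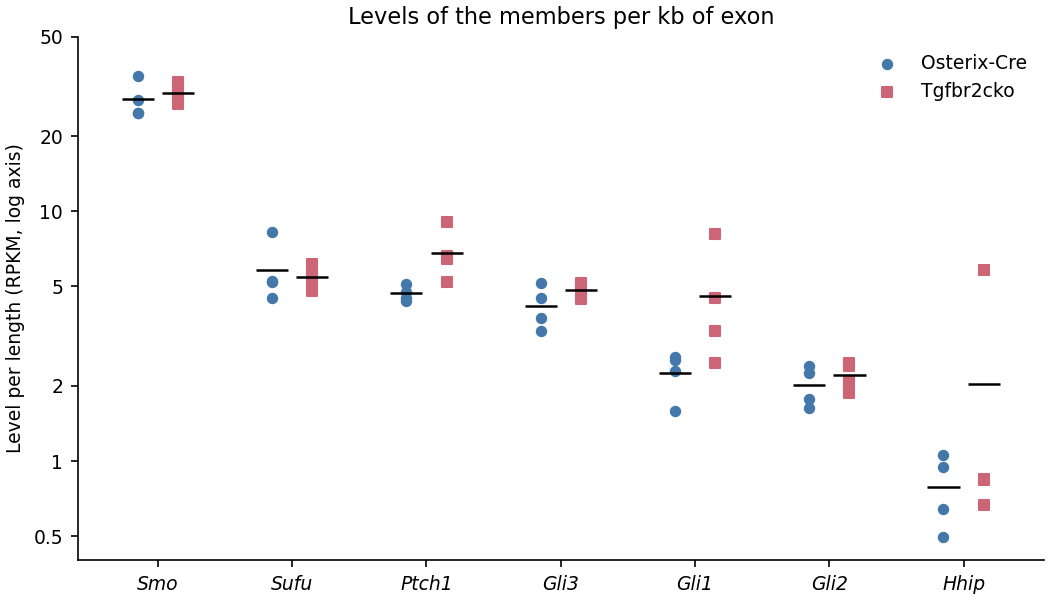
Level per kb of exon (RPKM, log axis) of each member, ordered by the control mean, with circles for Osterix-Cre and squares for Tgfbr2cko libraries and a bar for the mean of each group. Smo stands at 24.7 to 34.9 RPKM in all 8 libraries, and the Hhip value of 5.8 RPKM belongs to mutant 56.

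The epithelial level of the libraries was set beside the targets. The mean log2 CPM of the epithelial genes Krt5, Krt14, Cdh1, Epcam and Trp63 was 5.27, 4.81, 5.55 and 5.22 in the control libraries, and 4.48, 5.44, 6.47 and 7.89 in the mutants. The order of the mutants by this level, 53, 54, 55 and 56, was also their order by Gli1. For Ptch1 mutant 54 was above 55, and for Hhip mutant 54 was the lowest. Control 50 had the lowest epithelial mean of the controls and the highest Gli1, Ptch1 and Hhip of them. The epithelial means of mutants 53 and 54 were not above the control values, and neither were their shares of reads on Amelx and Ambn, at 0.437% and 0.347%. Of these mutants, 54 lay above every control for both Gli1 and Ptch1, whereas 53 lay above every control for Ptch1 and below controls 49 and 50 for Gli1. With the epithelial mean added to the model, after the data were seen, the log2 fold change was 0.34 for Ptch1, with an unadjusted limma p of 0.0283 (adjusted p = 0.40), and 0.50 for Gli1, with an unadjusted limma p of 0.0481 (adjusted p = 0.486). These calls depended on the genes of the mean. Leaving Epcam out of it ended both, at 0.29 for Ptch1, with an unadjusted limma p of 0.0696 (adjusted p = 0.53), and 0.37 for Gli1, with an unadjusted limma p of 0.149 (adjusted p = 0.629). Leaving out any other of the 5 genes kept both. Epcam was lowest in mutant 53, at 1.34 log2 CPM against 3.13 to 4.58 in the other libraries. With the mean of Amelx, Ambn and Enam as the term, it was 0.41 for Ptch1, with an unadjusted limma p of 0.0236 (adjusted p = 0.39), and 0.58 for Gli1, with an unadjusted limma p of 0.0399 (adjusted p = 0.473). Which cells held the Gli1 and Ptch1 transcripts was not tested.

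**Figure D4:**
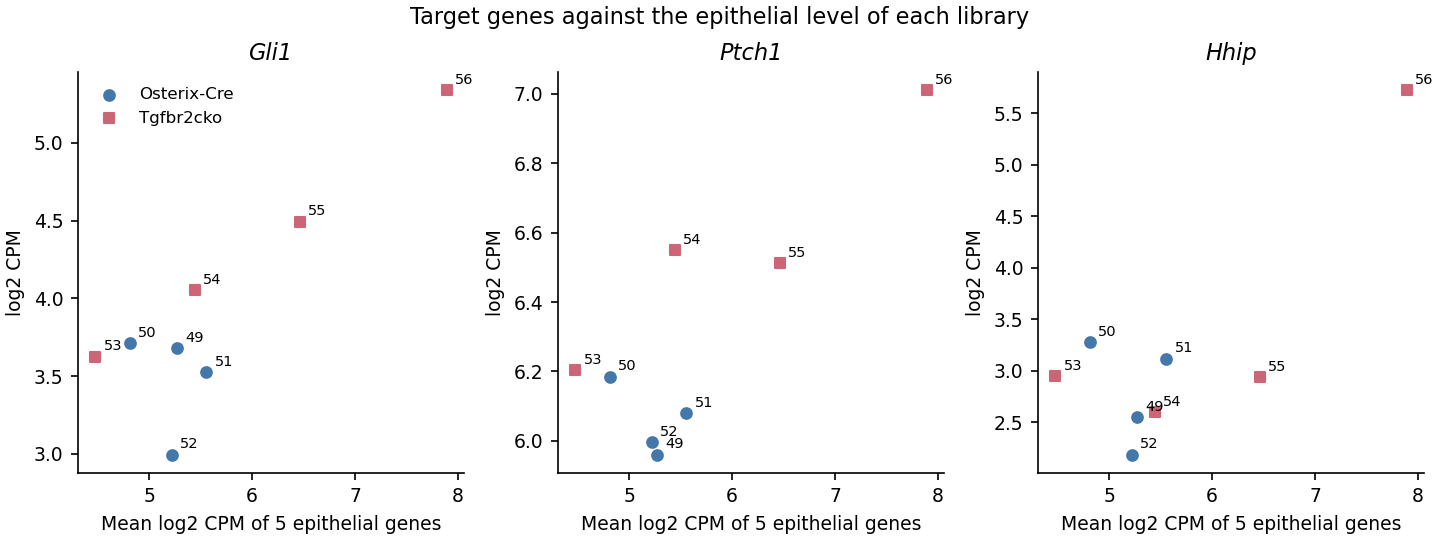
Log2 CPM of Gli1, Ptch1 and Hhip against the mean log2 CPM of 5 epithelial genes in each library, each panel on a vertical scale of its own, with library numbers beside the points. Mutants 55 and 56, at epithelial means of 6.47 and 7.89, lie to the right of every control, while mutant 54 lies among the controls on that axis and above them for Gli1 and Ptch1, and mutant 53 lies to their left with its Gli1 value of 3.62 within theirs.

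Markers of cell types also differed between the genotypes. Of the 14 dental mesenchyme markers 0 were higher and 1 was lower, Lhx8 (limma, adjusted p = 0.0475), and without library 56 Msx2 and Pdgfra were higher and Lhx8 lower. At an unadjusted p under 0.05, 4 of 10 odontoblast markers were lower and 0 higher, beside 5.08% of all genes lower and 3.3% higher, with a median log2 fold change of -0.57. Of the macrophage markers 4 of 6 were lower, of the endothelial 3 of 7, and of the pericyte and smooth muscle markers 3 of the 6 in the table. Of the Schwann cell markers 2 were in the table and 1 was higher, and of 5 red blood cell markers 0 passed (limma). Of 12 enamel organ and epithelial markers 1 was higher, Cdh1, and 1 was lower, Klk4. Their median log2 fold change was 1.15, and 0.26 without library 56. Several of these counts changed without library 56, when 4.15% of all genes were lower and 5.43% higher. Of the macrophage markers 2 were then lower and 1 higher, of the red blood cell markers 3 were lower, and of the odontoblast markers 3 were lower. Cdh1 lost its call, at an unadjusted limma p of 0.102, so 0 enamel organ and epithelial markers were higher (limma) and 2 were lower, Klk4 and Mmp20. The endothelial, pericyte and Schwann cell counts were as before. Their part in the values of the members was not tested.

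Beyond the 7 members, 84 further pathway genes were listed by role, and 70 of them were in the table. At an unadjusted p under 0.05 (limma), 5 of the 70 were called, 7.14%, near the 8.38% of all genes. This count was 3 to 8 without a library and 4 to 9 in the other alternatives. The share of all genes called in the fits at the ends of these ranges is not given here. With all 8 libraries the called genes were 3 higher and 2 lower, and the median log2 fold change of the 70 was 0.02. The ligands Shh, Ihh and Dhh were not analysed here.

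Among the 3 co-receptor and ligand-binding genes analysed, Gpc3, a glypican that binds Hedgehog ligands, rose by 0.72 log2 (limma, p = 0.00923, adjusted p = 0.253; exact permutation, p = 0.0571). Mutant 54 lay inside its control range, mutant 56 was the highest library, and without library 56 the log2 fold change was 0.47 (limma, adjusted p = 0.303). The co-receptor genes Boc and Gas1 were each at a log2 fold change of 0.02. In the list for ligand release and processing, Scube3, which encodes a secreted protein of the Scube family that helps release the ligand, fell. Its log2 CPM was 6.94, 7.23, 6.70 and 6.71 in the control libraries, and 6.50, 6.26, 5.93 and 6.00 in the mutants. Every mutant library lay below every control library, a log2 fold change of -0.72 (limma, p = 0.00104, adjusted p = 0.0756; exact permutation, p = 0.0286). For Scube3, the share of all genes separated in the lower direction is not given here. Hhat, the acyltransferase of the ligands, was at 0.03 and had the highest value of that list, and 3 of its 4 genes did not pass.

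Of 22 regulators of Smo and Gli in the table, 1 rose and 0 fell (limma), beside 3.3% and 5.08% of all genes. That gene was Kif7, a ciliary kinesin that controls Gli factors at the tip of the cilium, at 3.49, 3.26, 3.77 and 2.98 log2 CPM in the control libraries, and 3.90, 3.84, 3.95 and 3.94 in the mutants. The mutant values lay closely together above all controls, a log2 fold change of 0.53 (limma, p = 0.0241, adjusted p = 0.423; exact permutation, p = 0.0286). Of all genes, 2.13% were separated in this direction. Without control 50, control 52 or mutant 55 the unadjusted limma p of Kif7 was 0.057, 0.0776 or 0.0531, and with title numbers averaged it was 0.0657. The lowest value of the list was that of Iqce, at -0.35 (limma, adjusted p = 0.728; exact permutation, p = 0.0857), which passed only without control 49 or mutant 54 among all 22 alternatives and was at -0.30 without library 56. Of 33 cilium genes, 0 rose and 1 fell (limma), beside 3.3% and 5.08% of all genes, and the gene was Ift57, which encodes a subunit of the intraflagellar transport complex B. It was at 5.74, 5.72, 6.30 and 6.42 log2 CPM in the control libraries, and 5.09, 5.37, 5.04 and 4.89 in the mutants, and its log2 fold change was -0.95 (limma, adjusted p = 0.0327; exact permutation, p = 0.0286). Every mutant library lay below every control library, and the share of all genes separated in this direction is not given here. Ift57 was the only gene of the 70 with an adjusted p under 0.05, and it lost this without control 51, control 52, mutant 55 or mutant 56 (limma, adjusted p from 0.0519 to 0.133 without these 4 libraries). It also lost it with no intensity trend (0.0719), the enamel term (0.0681), the epithelial term (0.0528) and that term without Epcam (0.0958), and its adjusted p was under 0.05 in 14 of 22 alternatives (0.0104 to 0.133, limma). Ift88 of the same complex had the highest value of the list, 0.54 (limma, p = 0.0547, adjusted p = 0.614; exact permutation, p = 0.0857), and passed without control 51 or mutant 55, at unadjusted limma p of 0.0459 and 0.0291. It also passed in 10 of 14 other alternatives, the enamel and epithelial terms among them, at 0.0376 to 0.0483, and without library 56 it was at 0.57 with an unadjusted limma p of 0.0554. Without library 56, Mks1, another cilium gene, was called in the higher direction (0.43, unadjusted limma p of 0.0471), and it is named because this call was seen.

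Of 8 further targets analysed, 1 rose, Ccnd1, which encodes cyclin D1, and 0 fell (limma), beside 3.3% and 5.08% of all genes. Ccnd1 was at 5.12, 5.36, 5.94 and 5.30 log2 CPM in the control libraries, and 5.50, 6.27, 5.93 and 6.15 in the mutants. The groups overlapped, with control 51 above mutants 53 and 55, and the log2 fold change was 0.53 (limma, p = 0.0248, adjusted p = 0.429; exact permutation, p = 0.0857). Foxm1, a proliferation factor, had the lowest value of the list at -0.60 (limma, p = 0.155, adjusted p = 0.841; exact permutation, p = 0.2), and without mutant 53 at -1.01, with an unadjusted limma p of 0.00799 (adjusted p = 0.181). Its difference was -0.41 without library 56, -0.29 with the enamel term, -0.12 with the epithelial term and -0.0043 without Epcam in that term. Foxf2, a forkhead factor, had the highest at 0.55 (limma, p = 0.0797, adjusted p = 0.692; exact permutation, p = 0.143), and passed without control 49 or mutant 55, at unadjusted limma p of 0.0279 and 0.0273. It was at 0.41 without library 56 and 0.36 with library weights. The median over the 8 genes was 0.15. For Gli1 and Ptch1 the call remained without library 56, and of the other called genes Scube3, Gpc3, Kif7 and Ift57 also stayed under 0.05, while Ccnd1 went to an unadjusted limma p of 0.0525 and also lost its call without control 49, 50 or 52 or mutant 54 (0.0528 to 0.0818). Ccnd1 also lost it with title numbers averaged (0.0549), with the epithelial term (0.40, unadjusted limma p of 0.0774) and with each of the 5 versions of that term that leave out a gene (0.0638 to 0.115).

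**Figure D5:**
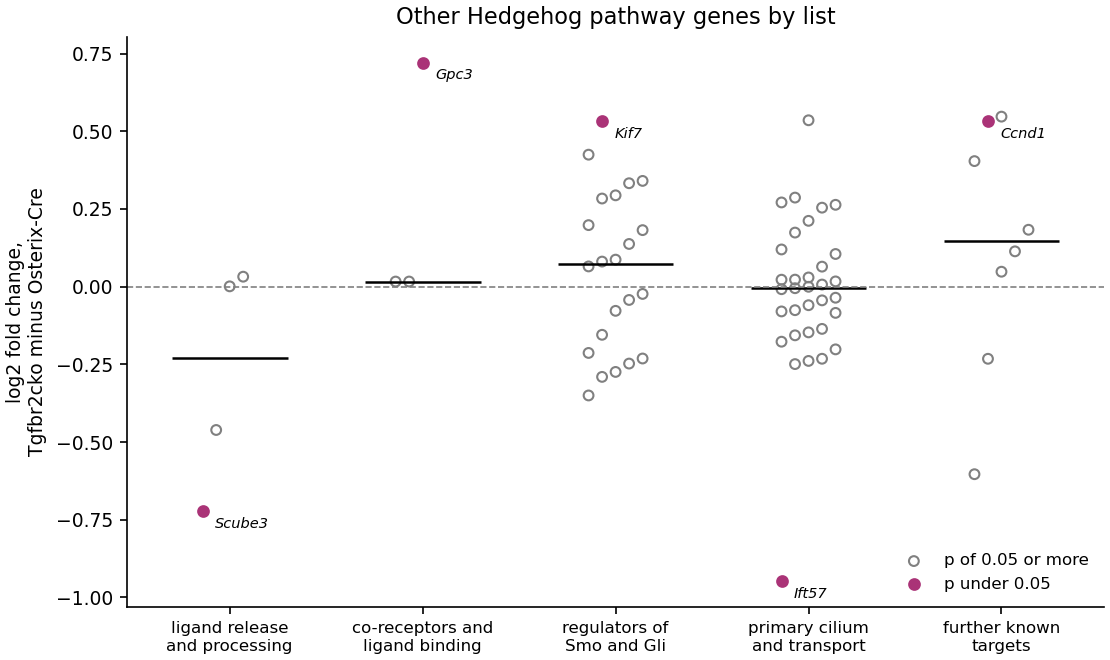
The log2 fold change of each further pathway gene in the table, by list, with filled points for an unadjusted limma p under 0.05, open points for the rest and a bar for the median of each list. Called genes are named, and the medians run from -0.23 for ligand release to 0.15 for the further targets, and these are -0.08 and 0.28 without library 56.

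Likeness to Gli1 was described by Pearson's r of log2 values over the 8 libraries, which also differ in depth and in the epithelial level given above. The highest of the genes reported here were Ephb1 at 0.989, Fhl2 at 0.976, Rhob at 0.967, Krt17, an epithelial keratin, at 0.963 and Slc39a10 at 0.962. With each genotype mean subtracted, the highest of them were Igf2bp3 at 0.988, Ephb1 at 0.986, Tmem8 at 0.985, Nrtn at 0.984 and Fhl2 at 0.978. Library 56 decided part of this order: without it, Ephb1 stayed first at 0.984 and Fhl2 was at 0.938, whereas Tmem8, whose r without the subtraction was 0.416 over 8 libraries, was at -0.036. Among the members, r between Gli1 and Ptch1 was 0.935 (rank 26 over all genes by r to Gli1), and 0.824 without library 56 (rank 140). For Gli1 and Hhip it was 0.835 (rank 184), and 0.40 without that library (rank 2745). Smo and Sufu had an r of 0.870, and 0.866 without library 56.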

How the data were processed

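RNA-Seq was made from low-input DP RNA (SMART-Seq preamplification, Nextera XT). Per the labels, reads were processed with fastp 0.21.0, HISAT2 2.1.0 and featureCounts of Subread 2.0.1 on GRCm38.p5. The authors filtered genes with CLEAR and applied voom, so the deposited values are log2 CPM with a prior count of 0.5. The deposited log2 values gave whole reads (largest distance 3.61e-08), and read numbers in the text are these. Amplified reads carry no molecular identifiers, so read numbers give the counting error of reads only, and not that of the RNA molecules.

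All 8 libraries and 12148 genes were fitted in R 4.3.3 with limma 3.58.1 (two-sided, intensity trend, Benjamini-Hochberg over all genes), tested on simulated data. A call was an unadjusted p under 0.05. Members and listed genes were also tested two-sided, by exact permutation of the 70 arrangements (35 without library 56). Lengths and coordinates were from GENCODE M21 on GRCm38, for 12144 identifiers.

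Named genes were the members, Tgfbr2, enamel matrix genes, listed pathway genes with a call or the largest rise or fall of their list, and the 5 genes most like Gli1 among those reported here. Some listed genes are not reported here and were left out of the lists, the epithelial mean and their counts. Gene lists and members were chosen with earlier results of these data known, and other genes in the text were named after their values were seen. Alternatives were the variance prior, library weights, voom weights, 2 scalings, a filter at a mean log2 of 3, averaging by title number, enamel and epithelial terms, and leaving out each library.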

Additional observations from a re-analysis of the deposited data

Results flagged for a closer look

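Of 36 groups of 4 libraries tested for a library that stands apart by Dixon's ratio, over 18 named genes, 1 passed the 95% critical value for 4 samples, and chance flags about 1 group in 20. It was Hhip in the Tgfbr2cko libraries. Library 56 was at 5.72 log2 CPM and the other mutants at 2.60, 2.94 and 2.95, a ratio of 0.889. The same library had 18.5% of its reads on Amelx and Ambn and the highest epithelial mean, 7.89 log2 CPM. It was also the highest library for Gli1 and Ptch1. The part of the epithelial transcripts in the Hhip value was not tested.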

How the results depend on the processing

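Gli1 and Ptch1 stayed higher, with an unadjusted limma p under 0.05, in each of the 8 other settings named with the methods. With title numbers averaged, which leaves 3 controls against 2 mutants, their exact permutation p was 0.2, the smallest possible. That setting therefore cannot decide their calls. Gli1 and Ptch1 also stayed higher, with an unadjusted limma p under 0.05, in the 8 fits without a library. With the epithelial term, added after the data were seen, both also passed. Without Epcam in that term neither did (Gli1 0.37, Ptch1 0.29, 0 members called), nor did Gpc3 (0.41) and Kif7 (0.48), and Hhip changed sign (-0.16). Without a library, Gli1 ran from 0.58 to 1.15 and Ptch1 from 0.37 to 0.64, and Gli2, Gli3, Smo and Hhip kept their sign and did not pass. Sufu changed sign with title numbers averaged (0.012), the enamel term (0.015), the epithelial term (0.041), that term without 1 of its genes (0.035, 0.036 or 0.053) and without a library (-0.17 to 0.12). Hhat, near 0, changed sign with title numbers averaged (-0.067), the epithelial term without Krt5 (-0.0083) or Krt14 (-0.0074) and without a library (-0.12 to 0.15). The 5 called further pathway genes became 9 with the epithelial term and with that term without Krt5, Krt14, Cdh1 or Trp63. Ccnd1 was called in none of those fits. Without a library the count was 3 to 8 (3 without control 50 or 52, 8 without mutant 53). For the fits that gave 9, 3 or 8 genes, the share of all genes called is not given here. Whether these counts differ from that share was not tested. The 115 genes at an adjusted p under 0.05 became 258 with library weights and 65 to 165 without a library (65 without control 51, 70 without control 52 and 72 without mutant 55), and 0 members passed it in any of these fits (limma). No paired analysis was possible because the groups share fewer than 2 title numbers. With 46 to 93 reads in 7 libraries, Hhip was the member least precisely counted.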
